A study of Mus musculus with 9 samples.

Results

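The aorta of mice fed a high-fat diet was compared with the aorta of vehicle mice on 6 of the 9 one-colour arrays of the study, 3 per group and 1 per mouse. The arrays were chosen by their treatment labels, not by any measured value. All mice were male C57BL/6J, an inbred laboratory strain that becomes obese on a high-fat diet. The diet-induced obese group, called DIO, had been on a high-fat diet for 4 months and received no sitagliptin. For the vehicle group the labels name neither a diet nor the substance given, and no age is stated for either group. The other 3 mice, fed the high-fat diet and given the oral DPP-4 inhibitor sitagliptin at 3 mg/kg per day, entered the statistical fit only to help estimate the spread between mice. The study was set up to ask how sitagliptin acts on the obese aorta, and the contrast described here concerns the high-fat diet without the drug.

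The wall of the aorta consists of an endothelial lining, a media of smooth muscle cells and an adventitia of fibroblasts, usually with fat around it. In obesity the endothelium loses part of its capacity to relax the vessel, lipoprotein lipid and immune cells can collect in the wall, and fatty acids become a larger part of the fuel on offer. Long noncoding RNAs, transcripts that are not translated into protein, were measured on the same arrays as messenger RNAs. The aorta was measured as bulk RNA, so that fewer cells of a type and less RNA per cell cannot be told apart.

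The arrays held 60823 probes, of which 49360 (81.2%) passed a detection filter and were tested. The filter also kept 10 of the 15 probes named NEGATIVE (66.7%), so that passing it does not by itself show signal above those probes. Levels below are log2 of the processed intensity plus 1 after quantile normalization over the 9 arrays, and a difference is the mean of the 3 DIO arrays minus the mean of the 3 vehicle arrays on that scale, which understates the change of dim probes. Only 50 probes are named by a transcript accession, and 49 of these could be given a gene symbol. The remaining probes carry array identifiers without a gene here and are grouped by the prefix of their names. The tissue label could be checked only in part. Of 12 genes listed for smooth muscle, 1 had a named probe, Hspb7, which is not particular to smooth muscle. For endothelium (10 genes), fibroblasts (9 genes), adipocytes (9 genes), skeletal and cardiac muscle (8 genes) and red blood cells (5 genes) no member had a named probe.

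The arrays differed in quality within both groups. The share of spots marked well above background ran from 61.7% to 78.6% in vehicle and from 67.0% to 82.9% in DIO, with means of 68.1% ± 9.13 and 74.7% ± 7.98 (SD, n = 3 each; exact two-sided permutation p = 0.4). The log2 ratio of the GAPDH control probes whose names end in 3 and in 5, a kind of ratio commonly read as a measure of RNA integrity, was -1.49, -0.02 and -2.48 in vehicle 1 to 3 and -1.62, 0.43 and 0.15 in DIO 1 to 3. The group means, -1.33 ± 1.24 and -0.34 ± 1.11 (SD, n = 3 each), differed by 0.99 (exact two-sided permutation p = 0.3, where 3 against 3 cannot go below 0.1). Vehicle 1, vehicle 3 and DIO 1 therefore had low ratios, and the other 3 arrays had ratios from -0.02 to 0.43. The GAPDH probe ending in 5 had intensities of 303, 509 and 332 in the arrays of low ratio and 88 to 152 in the others. The probe ending in 3 had 91 to 108 and 98 to 161. The same ratio for the PGK1 control probes was 1.41, 0.93 and 1.94 in vehicle 1 to 3 and 0.99, 2.21 and 0.03 in DIO 1 to 3. It differed by -0.35 between the groups (exact two-sided permutation p = 0.7) and did not separate the same arrays. Vehicle 3 was scanned on 20 November 2020 and the other 5 arrays on 12 November 2020, according to the scan records. Across the kept probes, vehicle 3 correlated with the other 5 arrays at 0.795 to 0.864, whereas those 5 correlated among themselves at 0.930 to 0.982 (Pearson's r across probes, a description only). Vehicle 3 held the highest of the 6 values at 31.6% of kept probes and the lowest at 39.7%. Results are therefore also given without this array. With it left out, all arrays compared share 1 scan date.

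No gene, long noncoding RNA or other probe differed between DIO and vehicle aorta at an adjusted p under 0.05. The called share was 0% (0 of 49360 probes in limma's moderated test with Benjamini-Hochberg adjustment), and the smallest adjusted p was 0.925. Before adjustment, 354 probes (0.717% of those tested) had p under 0.05, with 215 (0.436%) higher and 139 (0.282%) lower in DIO. Differences of size were common: 2160 probes (4.38%) were more than 2-fold higher in DIO and 2065 (4.18%) more than 2-fold lower. Only 260 probes (0.527%) combined a 2-fold difference with an unadjusted p under 0.05. The median 95% interval extended 1.13 to either side of a probe's difference, so that for a typical probe a 2-fold difference was not detectable with these arrays. All 3 DIO values lay above all 3 vehicle values at 2051 probes (4.16%) and below them at 1609 probes (3.26%), together 7.41%. The balance of directions depended on the scaling. With median scaling alone 1636 probes were more than 2-fold higher and 5011 more than 2-fold lower, with cyclic loess 1771 and 2923, and with no normalization between arrays 6312 and 2011. The probes without overlap were split into 1872 higher and 2386 lower with median scaling alone and into 594 and 284 with no normalization. The median difference of all kept probes was 0.05 after quantile normalization, -0.10 after median scaling and 0.26 with no normalization, and the values below are after quantile normalization.

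The spread between mice was larger among the vehicle arrays. The median SD of a probe was 0.588 in vehicle and 0.343 in DIO, and 0.309 between vehicle 1 and 2 alone. The last value is an SD of 2 arrays, which tends to be lower than that of 3, and does not compare directly with the others. Without vehicle 3, 282 probes (0.571%) were more than 2-fold higher in DIO and 243 (0.492%) more than 2-fold lower, and 83 (0.168%) had an unadjusted p under 0.05. The third group's array of the later scan date still entered that estimate of the spread, and 565 probes reached this p when it was left out as well. Leaving out vehicle 1 or 2 gave 584 and 2350 probes at an unadjusted p under 0.05, and leaving out DIO 1, 2 or 3 gave 557, 183 and 103. No probe passed the adjusted test in any of these fits. Of the 4225 probes that differed more than 2-fold with all 6 arrays, 362 (8.57%) still did without vehicle 3, each in the same direction. The probes at an unadjusted p under 0.05 were mostly dim. Among the 26038 kept probes whose mean level over the 6 arrays lay below a cutoff, 316 (1.21%) reached that p, against 38 (0.163%) of the 23322 brighter ones. The cutoff was the mean log2 of the intensity plus 1 of each array's highest probe named NEGATIVE, before normalization. The split is approximate, since the levels set against this cutoff were normalized.

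**Figure D1:**
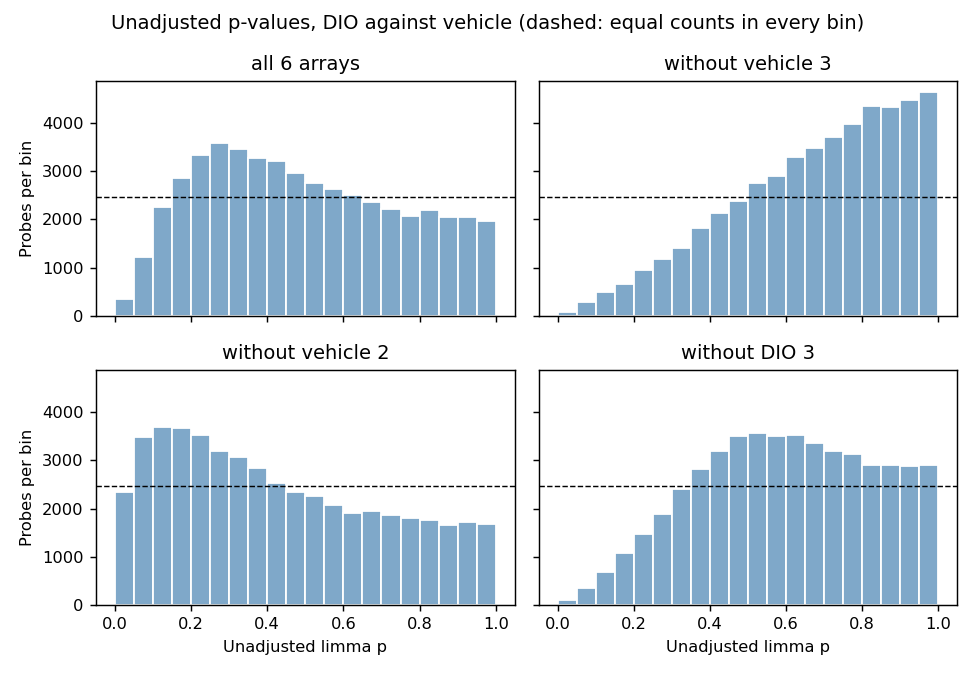
Number of kept probes (y axis) by unadjusted p of DIO against vehicle (x axis, bins 0.05 wide) with all 6 arrays and without vehicle 3, vehicle 2 or DIO 3; the dashed line marks equal counts in every bin. The first bin, with p under 0.05, holds 354, 83, 2350 and 103 probes, below the dashed line in every panel.

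The long noncoding RNA probes behaved like the array as a whole. In the family named ASMM10LNC, 23503 of 27812 probes were kept, and the median difference was 0.06, beside 0.05 over all kept probes. DIO was the higher group at 54.5% of the family and at 53.7% of all kept probes. Before adjustment 141 probes (0.600%, beside 0.717% of all kept probes) had p under 0.05, and more than 2-fold differences were split into 1009 higher and 943 lower. The families ASMM10AP and ASMM10P, whose names the files do not explain, had medians of 0.03 (18579 probes kept) and 0.04 (5489 probes kept). Of their probes, 0.791% and 0.984% had p under 0.05 before adjustment, beside the same 0.717%. In ASMM10P 41 of these 54 probes were higher in DIO and 13 lower, beside 215 and 139 over all kept probes. More than 2-fold differences in ASMM10P leaned the other way, with 293 higher and 339 lower, and its median was -0.02 without vehicle 3. The family ASMM10UP was smaller, with 405 probes kept and a median of 0.13.

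The probes named for lincRNAs, long intergenic noncoding RNAs, lay further toward DIO with all 6 arrays. The 720 kept humanlincRNA probes had a median difference of 0.28, and DIO was the higher group at 66.7% of them. For the 445 kept mouselincRNA probes these values were 0.26 and 67.6%. The 58 kept probes of the family MM9LINCRNAEXON had a median of 0.32. By array, the median level of the humanlincRNA probes was 4.45, 4.62 and 4.21 in vehicle 1 to 3 and 4.51, 4.58 and 4.61 in DIO 1 to 3. Vehicle 3 was thus the lowest array, and vehicle 2 was above every DIO array. The mouselincRNA probes likewise had vehicle 3 lowest and vehicle 2 highest, with 4.48, 4.66 and 4.30 in vehicle and 4.56, 4.58 and 4.64 in DIO. Without vehicle 3 the median differences were 0.05, 0.04 and 0.10 in the order of the families above. The 10 kept probes named NEGATIVE moved the same way, with a median difference of 0.47 that became 0.11 without vehicle 3. Their median level was 3.62, 3.96 and 2.95 in vehicle and 3.93, 4.08 and 4.20 in DIO. The share of humanlincRNA probes brighter than the highest NEGATIVE probe of their array was 19.2%, 27.9% and 14.0% in vehicle and 28.8%, 29.0% and 26.8% in DIO. Over all probes the same share was 34.2%, 42.3% and 30.2% in vehicle and 45.8%, 45.8% and 42.5% in DIO. The intensity of that NEGATIVE probe was itself lower in DIO, 30.8 ± 5.21 against 39.2 ± 2.99 (SD, n = 3 each; exact two-sided permutation p = 0.1). With scan date as a term in the fit, the medians of the humanlincRNA and mouselincRNA probes were 0.09 and 0.06. Both medians remained positive with median scaling alone (0.26 and 0.25), cyclic loess (0.26 and 0.25) and no normalization (0.62 and 0.61). No probe of these lincRNA families passed the adjusted test, and the part of the background level in these medians was not tested.

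**Figure D2:**
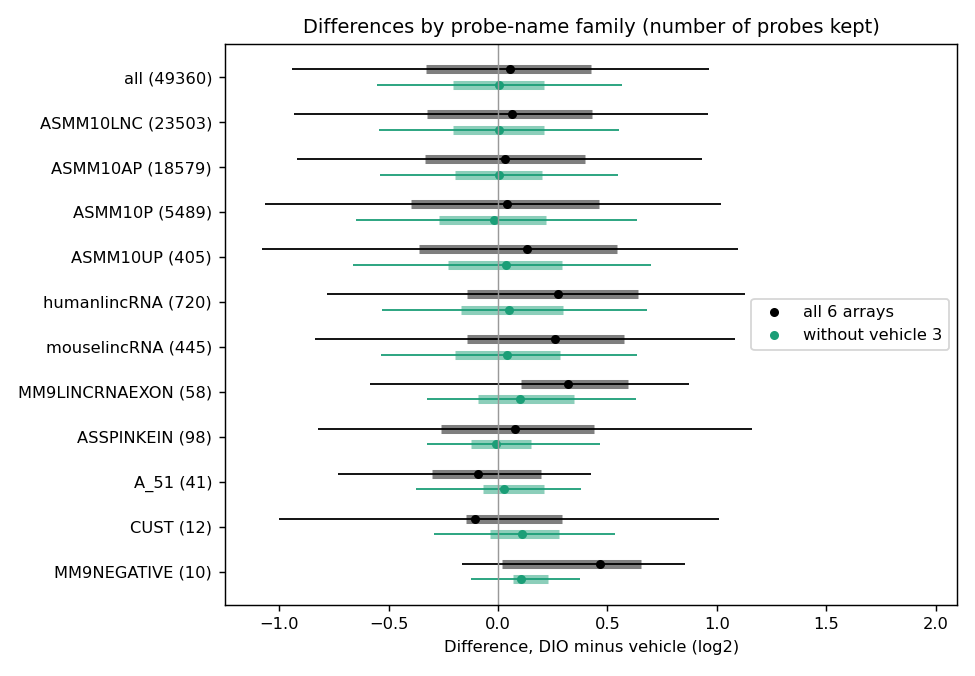
Difference of DIO minus vehicle (log2, x axis) for the kept probes of each probe family (y axis), with all 6 arrays and without vehicle 3: points are medians, thick bars span the quartiles and thin lines run from the 5th to the 95th percentile. Medians of the lincRNA families lie between 0.26 and 0.32 with all arrays and between 0.04 and 0.10 without vehicle 3.

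Within families, the probes with the smallest unadjusted p in each direction were taken from the 4 families with at least 500 kept probes. None of the 16 passed the adjusted test (limma, adjusted p = 0.925 for each). All 16 had groups that did not overlap, beside 7.41% of all kept probes, which their choice by small p largely fixes. ASMM10AP1B116154023V4 was the only one of them brighter than the highest NEGATIVE probe on most arrays, 5 of 6. Its levels were 6.18, 7.98 and 6.61 in vehicle and 5.33, 5.35 and 4.68 in DIO. Vehicle 2 was the highest array and DIO 3 the lowest. The difference was -1.80 ± 0.49 (SE), and -1.96 without vehicle 3. ASMM10LNC1A103171502V4 was brighter than the NEGATIVE probes on 3 arrays, with levels of 3.92, 4.45 and 4.32 in vehicle and 5.13, 5.03 and 5.24 in DIO. Its difference was 0.90 ± 0.29 (SE), and 0.95 without vehicle 3. ASMM10LNC1A114637420V4 exceeded the NEGATIVE probes on 1 array, vehicle 3, and differed by -2.15 ± 0.72, or by -1.50 without that array. The other 13 did not exceed the highest NEGATIVE probe on any array. Among these, humanlincRNA0540-_P1V4 differed by 1.44 ± 0.40, ASMM10AP1B106549116V4 by 1.60 ± 0.43 and ASMM10LNC1A100026926V4 by -2.42 ± 0.79.

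Described here are 48 genes with a symbol, of which 39 were kept and none was called. None of the 39 reached an unadjusted p under 0.05, the smallest being 0.109 for Actb (limma's moderated test). In none did the 3 DIO values all lie above or all below the 3 vehicle values, beside 7.41% of all kept probes. The mean of DIO was lower for 24 genes and higher for 15, with a median difference of -0.09. Ppara, the nuclear receptor that switches on fatty acid oxidation, and Sod1, the cytosolic superoxide dismutase, were among the 9 genes that did not pass the filter. The 21 genes brighter than the highest NEGATIVE probe on at least 4 of the 6 arrays are described by role. Vehicle 3 held the highest value of the 6 in 10 of them and the lowest in 4. For 15 of the 21 the difference was smaller without vehicle 3, and for 8 its sign changed. The median SD of these genes between mice was 0.78 in vehicle and 0.42 in DIO, whereas the median SD between the spots of a probe was 0.097. The spread between arrays was thus far larger than that between spots of an array.

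Actb and H2-Q7 had the largest differences among the named genes, both toward lower levels in DIO and neither past the test. For each, the size depended on which vehicle array was included. Actb encodes beta-actin of the cytoskeleton of nonmuscle cells. Its levels were 11.19, 7.45 and 11.97 in vehicle and 10.02, 7.27 and 6.45 in DIO. The high arrays, at 10.02 or above, were vehicle 1, vehicle 3 and DIO 1, and the remaining 3 were at 7.45 or below, so that the groups overlapped. The difference was -2.29 ± 1.30 (SE; 95% interval -5.19 to 0.61; limma adjusted p = 0.925), with -1.41 without vehicle 3 and -3.67 without vehicle 2.

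H2-Q7 and H2-M2 belong to the class Ib histocompatibility genes, relatives of the molecules that present peptides to T cells. H2-Q7 had levels of 7.48, 4.90 and 8.28 in vehicle and 6.43, 5.62 and 4.58 in DIO. The groups overlapped, with vehicle 2 below 2 of the DIO arrays. Its difference was -1.34 ± 0.85 (SE; limma adjusted p = 0.925), with -0.65 without vehicle 3 and -2.34 without vehicle 2. The value for H2-Q7 is uncertain as to the gene, since neighbouring genes of the Q region are near-identical in sequence. H2-M2 had 7.26, 6.47 and 7.78 in vehicle and 7.05, 6.57 and 5.95 in DIO, with a difference of -0.65 ± 0.52 that ran from -0.996 to -0.342 as each array was left out. The other 9 of the 11 antigen presentation genes listed had no named probe.

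The high and low arrays of Actb were those that differed in the GAPDH ratio. Vehicle 1, vehicle 3 and DIO 1, with ratios below -1, held the 3 highest values of Actb, H2-Q7, H2-M2, Apoe, Acaa2, Hspb7 and Olfr166, which are 7 of the 21 genes, and the 3 lowest values of Gamt. Over all kept probes these arrays held the 3 highest values at 13.9% and the 3 lowest at 13.2%. Within the arrays of low ratio, Actb was at 11.19 and 11.97 in vehicle and 10.02 in DIO, and within the others at 7.45 in vehicle and 7.27 and 6.45 in DIO. With the GAPDH ratio as a covariate in the fit, the differences were -0.91 ± 0.88 (SE) for Actb, -0.39 ± 0.51 for H2-Q7, -0.23 ± 0.44 for H2-M2 and -0.17 ± 0.64 for Apoe. Those of Acaa2 and Olfr166 became -0.08 and -0.19, while that of Hspb7 became larger, from 0.26 to 0.66. The PGK1 ratio did not separate these arrays, and a part of RNA integrity in these differences was not tested.

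**Figure D3:**
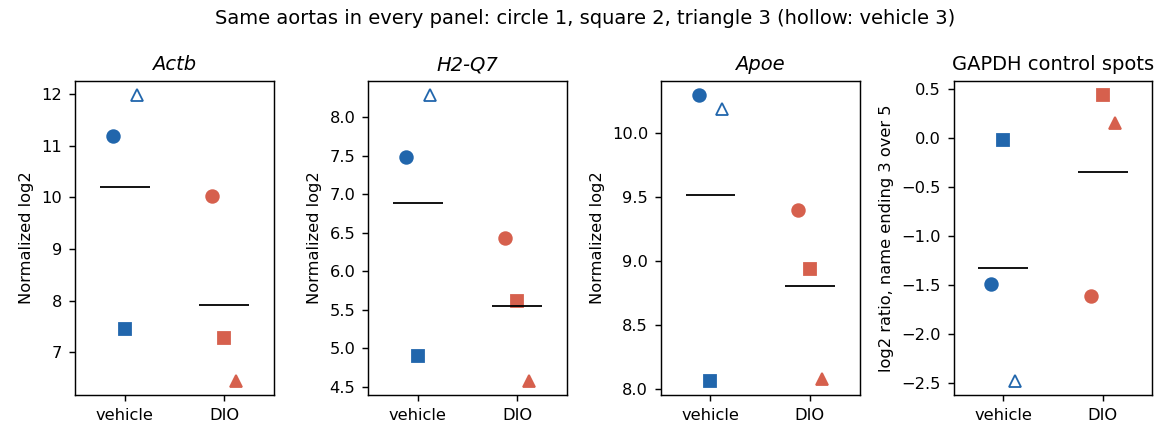
Normalized level (log2) of Actb, H2-Q7 and Apoe and the log2 ratio of the GAPDH control probes (y axes) in the 3 vehicle and 3 DIO arrays (x axis), with the same symbol for the same aorta in every panel and lines at the group means. Vehicle 1, vehicle 3 and DIO 1, with ratios from -2.48 to -1.49, have the 3 highest levels of each gene.

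Apoe, the apolipoprotein through which remnant lipoproteins are taken up and which macrophages and smooth muscle cells of the wall also make, was the only one of 10 lipid transport and storage genes with a named probe. It is also the only macrophage marker measured, of 9 listed. Its levels were 10.30, 8.07 and 10.19 in vehicle and 9.40, 8.94 and 8.08 in DIO. The DIO arrays lay between vehicle 2 and the other vehicle arrays. The difference was -0.71 ± 0.71 (SE; 95% interval -2.29 to 0.87; limma adjusted p = 0.925). Leaving out vehicle 1, 2 or 3 gave -0.32, -1.44 and -0.37.

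Of the 14 fatty acid oxidation and peroxisome genes listed, 4 had a named probe and 3 were kept. The mean of DIO was lower for all 3, with a median difference of -0.30 (-0.09 over the 39 named genes). None passed the test, and the signs of Cpt1a and Pex11a depended on the setting. Acaa2, the thiolase that ends each round of mitochondrial beta-oxidation, had levels of 7.18, 5.85 and 7.22 in vehicle and 6.98, 6.32 and 6.04 in DIO, a difference of -0.30 ± 0.51 (SE) that was -0.07 without vehicle 3 and -0.76 without vehicle 2. Vehicle 2 was the lowest array. Pex11a, which acts in the division of peroxisomes, had 7.36, 7.61 and 7.91 in vehicle and 7.23, 7.69 and 7.48 in DIO, a difference of -0.16 ± 0.44 that was -0.02 without vehicle 3 and 0.05 with scan date as a term. The DIO values lay among or below those of vehicle, and vehicle 3 was the highest array. Cpt1a, which passes long-chain fatty acids into mitochondria as the rate-limiting step of their oxidation, was dimmer than the brightest NEGATIVE probe on each of the 6 arrays. Its levels were 3.19, 2.35 and 4.42 in vehicle and 3.52, 2.87 and 2.34 in DIO. The difference of -0.41 ± 0.66 became 0.14 without vehicle 3, 0.13 with scan date as a term, 0.17 with the GAPDH ratio as a covariate and 0.07 with no normalization between arrays.

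Of the 15 glycolysis and creatine genes listed, the 2 with a probe differed in opposite directions by less than their errors. Gpi1, glucose-6-phosphate isomerase, had levels of 6.78, 5.45 and 6.63 in vehicle and 6.73, 6.71 and 4.99 in DIO, with DIO 3 the lowest array and a difference of -0.15 ± 0.55 (SE). Gamt, the enzyme of the last step of creatine synthesis, had 6.33, 6.98 and 6.42 in vehicle and 6.65, 6.83 and 7.19 in DIO, a difference of 0.31 ± 0.46 that was -0.14 with median scaling alone. Vehicle 2 exceeded 2 of the 3 DIO arrays.

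Of the 17 redox genes listed, 4 had a probe and 3 were kept, 1 with a higher and 2 with a lower mean in DIO. Prdx2, a cytosolic peroxiredoxin that reduces hydrogen peroxide, had levels of 6.21, 5.69 and 5.85 in vehicle and 6.33, 6.26 and 5.88 in DIO. Its difference of 0.24 ± 0.46 (SE) was 0.21 without vehicle 3 and -0.11 with median scaling alone. Duox1, an NADPH oxidase that makes hydrogen peroxide, had 5.75, 6.28 and 7.46 in vehicle and 5.80, 6.10 and 5.95 in DIO. The 5 arrays other than vehicle 3 lay between 5.75 and 6.28, and the difference of -0.55 ± 0.70 became -0.07 without that array. Gsta4, a glutathione transferase that detoxifies the lipid peroxidation product 4-hydroxynonenal, was likewise dimmer than the brightest NEGATIVE probe on each array and differed by -0.21 ± 0.33, or by 0.19 with no normalization between arrays.

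Il2, Mzb1 and Gsdmd had higher means in DIO, vehicle 3 was the lowest array for each, and none passed the test. Il2, the growth factor made by activated T cells, had levels of 6.88, 6.99 and 4.71 in vehicle and 6.88, 6.72 and 7.22 in DIO. Vehicle 3 stood alone below the other 5 arrays. The difference was 0.74 ± 0.90 (SE; limma adjusted p = 0.925) with all arrays, and -0.00066 without vehicle 3. Mzb1, a chaperone of antibody-secreting B cells, had 6.21, 5.58 and 4.64 in vehicle and 6.12, 5.62 and 6.10 in DIO. Its difference of 0.47 ± 0.44 was 0.05 without vehicle 3. These are the only 2 of 10 lymphocyte and plasma cell markers with a named probe. Gsdmd, which forms the membrane pores of pyroptosis, had 5.86, 5.17 and 4.38 in vehicle and 5.31, 5.17 and 4.99 in DIO, a difference of 0.02 ± 0.54 that became -0.36 without vehicle 3, -0.06 without DIO 1 and -0.01 with median scaling alone.

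Hspb7, a small heat shock protein of cardiac and other muscle, was the only gene of the smooth muscle list measured. It is not particular to smooth muscle. Its levels were 6.35, 5.68 and 6.85 in vehicle and 7.44, 6.28 and 5.93 in DIO. DIO 1 was the highest array, and the other 2 DIO arrays lay within the range of vehicle. The difference was 0.26 ± 0.52 (SE), with 0.53 without vehicle 3, -0.05 without vehicle 2, -0.19 without DIO 1 and -0.11 with median scaling alone.

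Lhx1 and a pair of odorant receptors also gave signal above the NEGATIVE probes on all 6 arrays. Lhx1, a LIM homeobox factor of the embryonic kidney and head, had 6.55, 7.37 and 8.45 in vehicle and 6.94, 7.34 and 6.79 in DIO. Its difference of -0.43 ± 0.69 (SE) became 0.07 without vehicle 3. Olfr166 had 7.53, 7.19 and 8.73 in vehicle and 7.64, 6.98 and 6.62 in DIO, and its difference of -0.73 ± 0.70 became -0.28. Olfr1307 differed by -0.09 ± 0.51. None of the 3 neuron and neuroendocrine markers with a probe passed the test. Chgb, a protein of secretory granules, differed by 0.39 ± 0.57, Gabrg1, a GABA receptor subunit, by 0.39 ± 0.39, and Ntng1, a netrin, by -0.10 ± 0.41. These markers were dim and fall outside the rule for named genes. Chgb exceeded the highest NEGATIVE probe on 2 arrays, and Gabrg1 and Ntng1 on none.

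The remaining named genes of this brightness differed by no more than 0.12 in either direction. Anxa8, a calcium-dependent phospholipid-binding annexin, differed by 0.02 ± 0.29 (SE) and Tm9sf1 by -0.03 ± 0.51. Lhfp differed by -0.07 ± 0.67, and its mean intensity in DIO 2, 1203, came from 1 outlying spot among its replicate spots. That spot also enters the level of Lhfp in DIO 2, 7.29 beside 6.64 and 5.63 in DIO 1 and 3, and thus the difference. The predicted gene Gm9789 differed by -0.12 ± 0.71. The 16 kept genes that were dimmer and on neither the fatty acid oxidation nor the redox list differed by -0.60 to 0.43, with 8 higher and 8 lower in DIO.

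**Figure D4:**
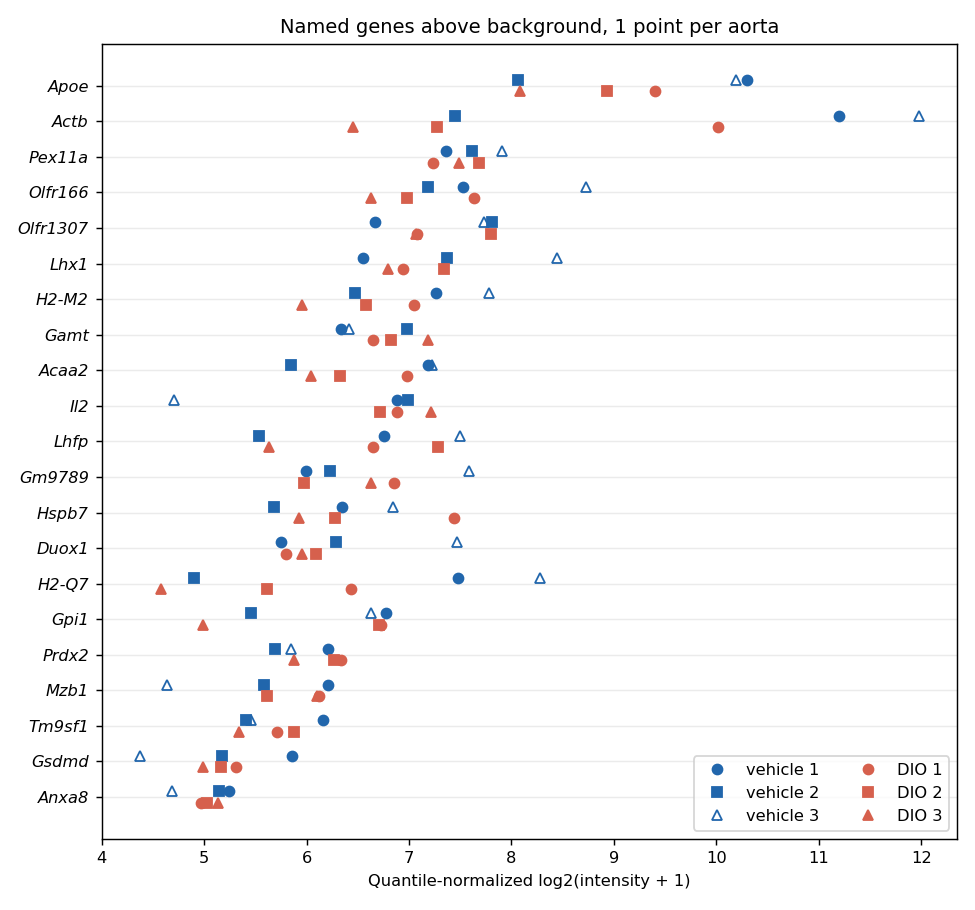
Normalized level (log2 of intensity plus 1, x axis) of the 21 named genes above background (y axis), with 1 point per aorta, vehicle in blue and DIO in red, and vehicle 3 as an open triangle. In no gene do the 3 DIO points all lie above or all below the 3 vehicle points.

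**Figure D5:**
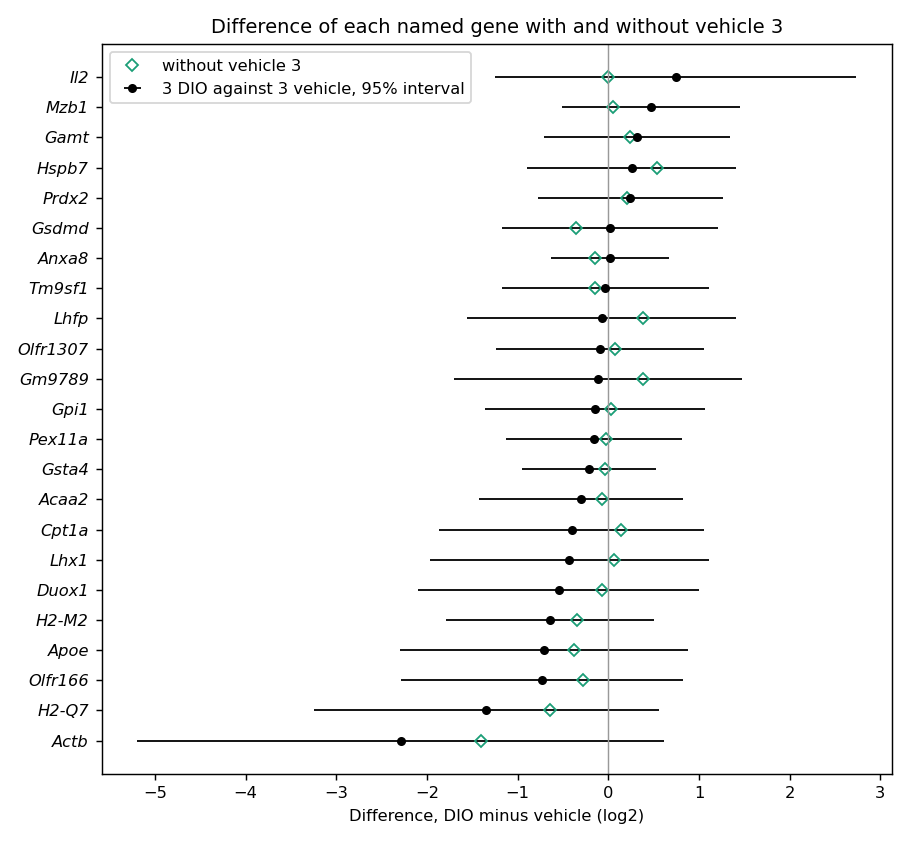
Difference of DIO minus vehicle (log2, x axis) for the 23 named genes (y axis), with the 95% interval of the fit (line) and the difference without vehicle 3 (open diamond). Every interval includes 0, and Actb has the largest difference, -2.29.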

How the data were processed

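Total RNA of 1 aorta per mouse was labelled with Cy3 and hybridized to Agilent one-colour arrays, per the labels' protocols. The deposited values are spot intensity (gProcessedSignal), which Agilent Feature Extraction 11.0.1.1 had background-subtracted and detrended. Per the file headers the annotation build is mm9, of which no coordinate is printed, and no step between arrays is recorded. Here, log2(intensity + 1) was taken per spot and averaged over the spots of a probe, and 9 arrays were quantile normalized. The filter required a share of 0.5 or more of a probe's spots to be flagged well above background, on 3 or more of the 9 arrays. The test was that of limma 3.58.1, run under R 4.3.3 (1 fit of 9 arrays, intensity trend, no covariate, Benjamini-Hochberg adjustment, called under 0.05). The procedure was tested on simulated arrays with equal spread in every group and no outlying array, which does not cover an array like vehicle 3. Single measures of the arrays were compared by exact permutation. Python 3.11.15 served for the rest. Replicates are separate mice, per the series' design text. Symbols came from RefSeq of GRCm38.p6 (46 of 50 accessions) and GENCODE (3 more), and 1 had none. A result on 1 of these probes is omitted.

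Named genes were all kept genes brighter than the highest of 15 NEGATIVE probes on at least 4 of the 6 arrays, kept genes of the fatty acid oxidation and redox lists, and the 2 probes of smallest p in each direction per family of at least 500 kept probes. Of 163 genes on 16 lists, 22 had a probe. Members, lists and rules were chosen with earlier results of these data known. Alternatives covered normalization, pseudocount, filter, intensity column, spot summary, variance prior, arrays in the fit, covariates, replicate block and each array left out. The number of arrays limits the precision.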

Additional observations from a re-analysis of the deposited data

How the results depend on the processing

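In every setting run, the number of probes called stayed at 0. The 354 probes at an unadjusted p under 0.05 became 46 with no normalization between arrays, 646 with no filter, 99 when detection was required on all 6 arrays, 881 with only the 6 arrays in the fit, 95 with the GAPDH ratio as a covariate, 565 without both arrays of the later scan date, and 83 to 2350 when each array was left out (without vehicle 3 and without vehicle 2). Replicate numbers 1 to 3 recur in each group's labels. Deviations of same-numbered arrays correlated at 0.34, 0.11 and -0.34, and vehicle 2 and 3 each correlated best with another number. With 3 arrays per group the deviations within a group depend on each other, so these values cannot decide whether the numbers pair arrays. By level across the kept probes, vehicle 1 correlated best with DIO 1 (0.981) and vehicle 2 with DIO 2 (0.982). Vehicle 3 had its lowest correlation with DIO 3 (0.795). A batch shared by replicate number was not tested. With the replicate number as a block 762 probes had an unadjusted p under 0.05 (488 within the 6 arrays), and none was called. The 3660 probes without overlap became 878 with no normalization, 1877 when detection was required on all 6 arrays, 5500 without both later arrays, and 5384 to 15624 when each array was left out, where smaller groups overlap less often by construction. The 4225 probes over 2-fold became 6647 with median scaling alone, 8323 with no normalization, 1795 with a pseudocount of 16, 2384 when detection was required on all 6 arrays, 607 with scan date as a term, 772 with the GAPDH covariate, 1497 with the raw spot median, 525 without both later arrays, and 525 to 10576 with each array left out. With each array left out the difference in the GAPDH ratio ran from 0.41 to 1.64 and that in spots above background from 2.49 to 11.8 percentage points. Other causes of these changes were not tested.

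Of 23 named genes, 7 kept their sign in every setting. Signs turned with median scaling alone for Anxa8 (-0.042), Gamt (-0.14), Gsdmd (-0.012), Hspb7 (-0.11) and Prdx2 (-0.11), and with no normalization for Cpt1a (0.072), Gsta4 (0.19) and Tm9sf1 (0.048). A pseudocount of 16 turned Gsdmd (-0.016), and the raw spot median turned Gsdmd (-0.012) and Anxa8 (-0.00396). Scan date as a term turned Anxa8 (-0.058), Cpt1a (0.13), Duox1 (0.10), Gm9789 (0.55), Gpi1 (0.00906), Gsdmd (-0.45), Il2 (-0.17), Lhfp (0.35), Lhx1 (0.18), Olfr1307 (0.17), Pex11a (0.048) and Tm9sf1 (0.15). The GAPDH covariate turned Anxa8 (-0.082), Cpt1a (0.17), Gm9789 (0.43), Gpi1 (0.18), Gsdmd (-0.17), Lhfp (0.22) and Tm9sf1 (0.010). Leaving out both later arrays turned Anxa8 (-0.15), Cpt1a (0.14), Gm9789 (0.38), Gpi1 (0.025), Gsdmd (-0.36), Il2 (-0.00066), Lhfp (0.38), Lhx1 (0.067) and Olfr1307 (0.073). With each array left out, Anxa8 ran from -0.15 to 0.12, Cpt1a from -0.89 to 0.14, Gm9789 from -0.42 to 0.38, Gpi1 from -0.56 to 0.43, Gsdmd from -0.36 to 0.38, Hspb7 from -0.19 to 0.57, Il2 from -0.00066 to 1.14, Lhfp from -0.61 to 0.38, Lhx1 from -0.88 to 0.067, Olfr1307 from -0.46 to 0.11 and Tm9sf1 from -0.17 to 0.21. Those that did not turn ran from -3.67 to -1.41 for Actb, -2.34 to -0.65 for H2-Q7, -1.44 to -0.32 for Apoe, -0.996 to -0.342 for H2-M2, -1.05 to -0.28 for Olfr166, -0.93 to -0.068 for Duox1, -0.76 to -0.066 for Acaa2, -0.32 to -0.037 for Gsta4, -0.29 to -0.022 for Pex11a, 0.13 to 0.39 for Prdx2, 0.16 to 0.51 for Gamt and 0.051 to 0.84 for Mzb1. Of the 16 probes chosen per family and the 3 family medians, 18 of 19 kept their sign. The median of the NEGATIVE probes was -0.15 when detection was required on all 6 arrays. For the 16 probes the choice by small p largely fixes this, since groups without overlap cannot change sign when 1 array is left out. The raw spot median, the fits without a DIO+sitagliptin array or both later arrays, and the block within 6 arrays were chosen after seeing the data. The alternative with the raw spot mean was not run, and the raw spot median took its place. Probes at the level of the NEGATIVE probes are limited by their signal over background, and all results by 3 mice per group.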
